A study of Homo sapiens with 18 samples.

Results

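The 5 genes described here encode the major proteins that promyelocytes pack into their azurophil (primary) granules: myeloperoxidase (MPO), azurocidin (AZU1), proteinase 3 (PRTN3), neutrophil elastase (ELANE) and cathepsin G (CTSG). They were chosen by name and located on the hg19 build, the build named in the submitters' processing notes, at MPO chr17:56347217-56358296, at the AZU1, PRTN3 and ELANE cluster chr19:827831-856250 and at CTSG chr14:25042724-25045466. Every peak that overlapped these 3 intervals or the 10 kb on either side was taken, whatever its value. After merging over libraries this gave 8 of 27037 H3K4me3 regions, 5 of 36947 H3K27ac regions and 5 of 46996 H3K9me3 regions. The material was chromatin of NB4, a human line established from acute promyelocytic leukemia (APL) that carries the PML-RARA fusion and is arrested at the promyelocyte stage. Chromatin immunoprecipitation sequencing (ChIP-seq) compared untreated cells with cells given maltonis, a small synthetic maltol derivative, at 10 µM for 24 h, and each of the 3 marks had 3 libraries per condition. All libraries come from this single line, so they hold no normal promyelocyte and no second APL line. The study describes the replicates as biological triplicates. The comparison asked whether maltonis altered active and repressive chromatin at the genes that define the granule content of the promyelocyte.

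Azurophil granule proteins are made in bulk during the promyelocyte stage and their genes are switched off again as granulocytes mature, so that these genes mark the stage at which APL blasts are held. MPO makes hypochlorous acid from hydrogen peroxide and chloride. ELANE, PRTN3 and CTSG are serine proteases of the chymotrypsin fold, and AZU1 is a relative of them that has lost protease activity and acts against bacteria. The transcription factors PU.1, C/EBP, RUNX1 and MYB are known regulators of this gene class. H3K4me3 marks active promoters, H3K27ac marks active promoters and enhancers, and H3K9me3 is a mark of heterochromatin. RNA was not part of the data used here, so chromatin was measured and expression was not.

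The sequences in front of the start sites are shown as background, because the promoters are where such factors are known to act on these genes. RefSeq promoters (GRCh38.p14) were matched by symbol for 3 of the 5 members, AZU1, PRTN3 and CTSG. The 250 bases before each start are written 5′ to 3′ on the strand of the gene. Capitals mark matches on either strand to letters known from the factors above: GAGGAA for PU.1, TTNCNNAA for C/EBP, TGTGGT for RUNX and AACNG for MYB. The E-box, CACGTG, was searched as well and does not belong to those factors. These positions belong to GRCh38.p14 and cannot be set against the hg19 positions of the peaks. The stretches are chr19:827587-827836 on the plus strand for AZU1, chr19:840749-840998 on the plus strand for PRTN3 and chr14:24576251-24576500 on the minus strand for CTSG.
AZU1: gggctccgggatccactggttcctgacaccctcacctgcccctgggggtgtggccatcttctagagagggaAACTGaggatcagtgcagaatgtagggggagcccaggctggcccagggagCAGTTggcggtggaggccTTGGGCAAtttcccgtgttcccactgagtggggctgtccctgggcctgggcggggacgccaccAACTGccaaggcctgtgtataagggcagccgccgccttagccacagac
PRTN3: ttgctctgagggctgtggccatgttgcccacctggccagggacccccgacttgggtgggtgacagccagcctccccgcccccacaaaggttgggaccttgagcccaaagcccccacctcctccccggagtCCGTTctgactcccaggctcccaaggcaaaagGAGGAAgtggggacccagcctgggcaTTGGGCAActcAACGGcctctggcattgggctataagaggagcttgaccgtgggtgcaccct
CTSG: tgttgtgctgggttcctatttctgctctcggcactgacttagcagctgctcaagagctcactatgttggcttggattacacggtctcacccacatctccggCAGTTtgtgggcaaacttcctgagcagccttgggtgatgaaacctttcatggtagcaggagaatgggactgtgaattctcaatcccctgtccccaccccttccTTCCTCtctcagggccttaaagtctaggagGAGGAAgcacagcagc

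Counted back from the base before the start, which is 1, the CTSG stretch held the PU.1 letters on the minus strand at 46 to 41 and on the plus strand at 16 to 11, and the PRTN3 stretch held them at 88 to 83. AZU1 and PRTN3 both held TTGGGCAA, a minus-strand match to the C/EBP letters, at 111 to 104 and at 62 to 55. The MYB letters occurred at 3 places before AZU1, at 2 before PRTN3 and at 1 before CTSG. No match overlapped another, and neither TGTGGT nor CACGTG was found in any of the 3 stretches. Among 35116 promoters of the same length, GAGGAA was present in 23.6%, TTNCNNAA in 33.2%, TGTGGT in 11%, AACNG in 70.6% and CACGTG in 6.34%. These matches describe letters only.

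In untreated cells, MPO, AZU1 and CTSG carried H3K4me3 and H3K27ac in 3 of 3 libraries for each mark. At AZU1 the H3K4me3 peaks crossed the gene start, and at MPO they began 42 to 84 bp inside the gene. Between AZU1 and ELANE, where PRTN3 is the only gene that RefSeq lists, a further H3K4me3 peak was present at chr19:840907-843968, and it is called the PRTN3 interval here because the hg19 start of PRTN3 was not in the sources used. ELANE was placed by its RefSeq length of 3941 bp counted back from the end of the cluster, which puts its start at 852310, and no untreated library had an H3K4me3 peak over it or just before it. The genes therefore differed before any treatment. MPO lay in very wide and strong H3K27ac, AZU1 in a moderately strong H3K27ac peak, and CTSG in a short peak of middling strength. The PRTN3 interval lay in a peak separate from that of AZU1. Reads per kb were 186, 175 and 185 in the AZU1 peak and 91.5, 84.3 and 106 in the peak over the PRTN3 interval. The strongest MPO peak ranked 48, 46 and 38 by island score, the caller's measure of a region's strength, among 34720 to 36288 H3K27ac peaks per untreated list. The strongest peak between AZU1 and ELANE, which was the one over AZU1, ranked 1075, 1004 and 901, and that of CTSG 12681, 12925 and 12495.

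**Figure D1:**
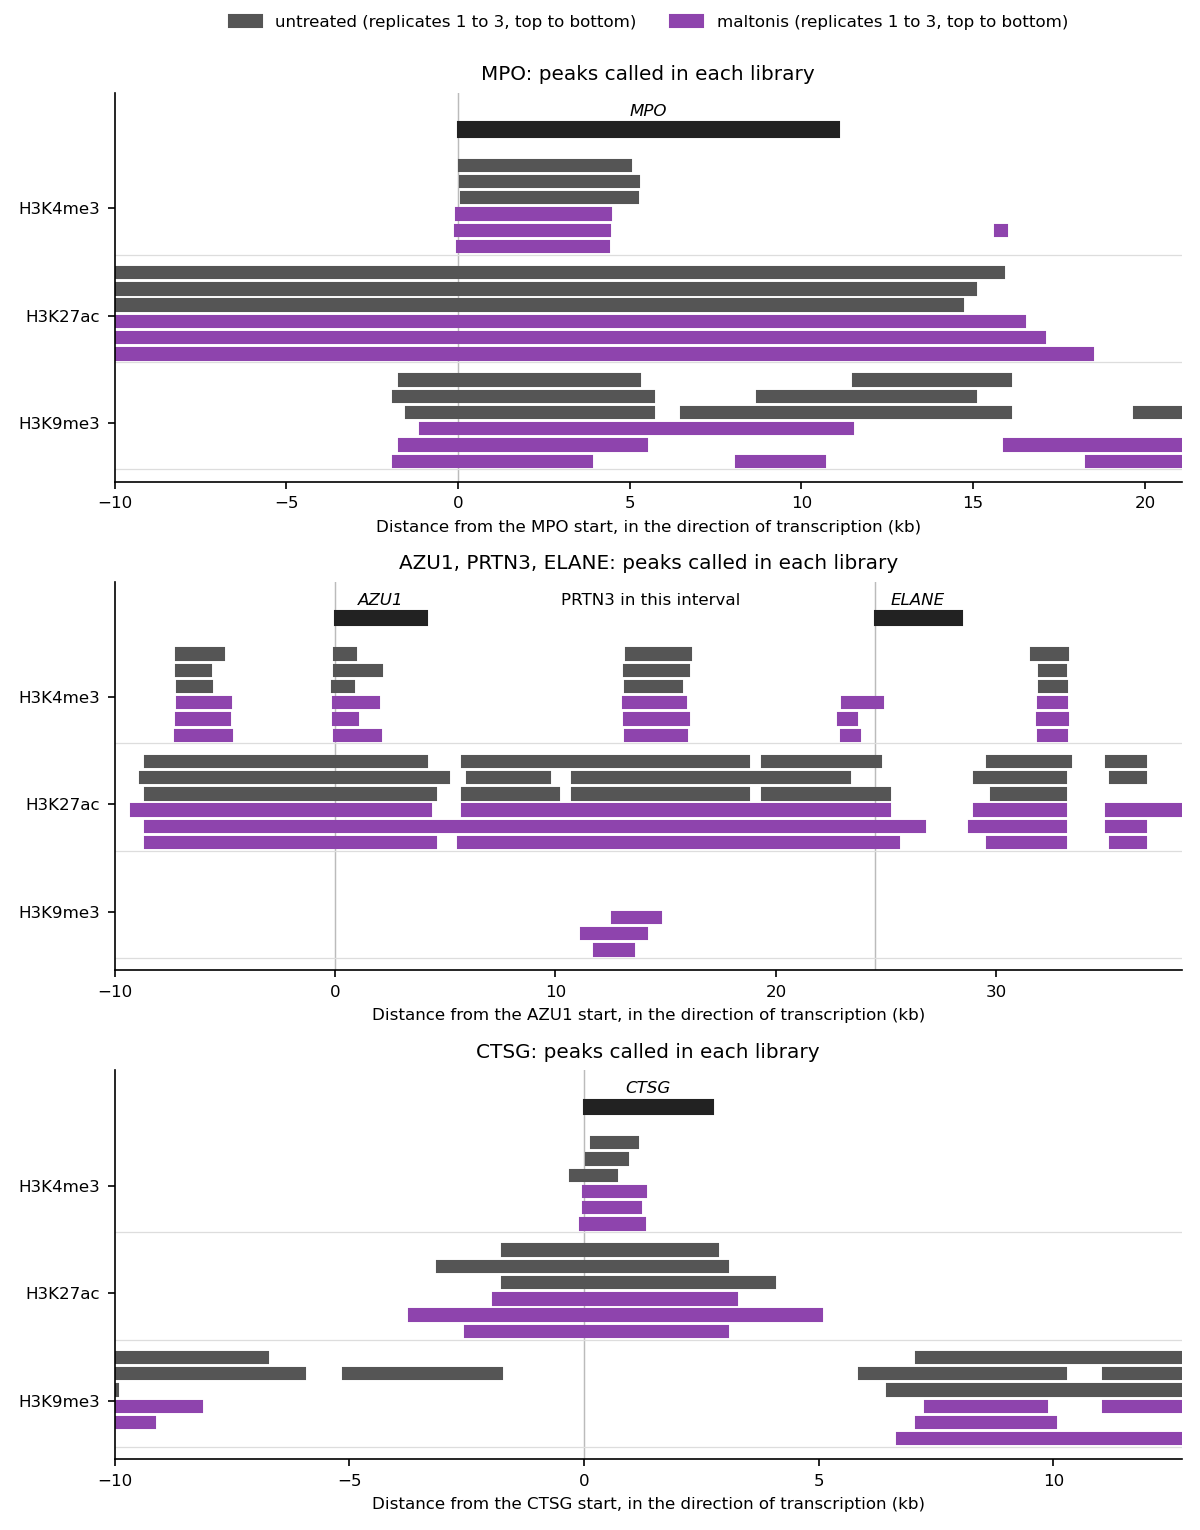
Peaks called in each library at the 3 loci with 10 kb flanks, plotted against distance in kb from the MPO, AZU1 or CTSG start in the direction of transcription; grey bars are untreated and purple bars maltonis libraries, replicates 1 to 3 from top to bottom, and black bars are the genes, with AZU1 and ELANE drawn by their RefSeq lengths from the 2 ends of the cluster. H3K4me3 before ELANE and H3K9me3 in the PRTN3 interval were called in 3 of 3 maltonis and 0 of 3 untreated libraries, and the H3K4me3 peak of MPO ended earlier in the gene after maltonis.

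CTSG had the largest log2 change of the tested regions in the windows for both active marks. After maltonis its H3K4me3 fold enrichment rose 1.77-fold once divided by the library medians, and 1.59-fold as deposited. Its H3K27ac reads, scaled between libraries, rose 2.05-fold. The protease encoded by CTSG is stored in azurophil granules and cleaves bacterial and matrix proteins. The H3K4me3 region, chr14:25044152-25045761, covers the CTSG start and the front part of the gene. Its fold enrichment, the ratio of the peak's signal to the caller's local background, was 2.74, 2.96 and 3.00 in the untreated libraries and 4.56, 4.50 and 4.74 after maltonis. All maltonis libraries lay above all untreated ones, as they did, once scaled as described next, at 25.2% of tested regions. Before testing, each library was divided by its own median over the 12470 regions called in all 6 libraries, since the medians were 4.58 to 4.69 untreated and 4.11 to 4.27 after maltonis. Changes on the divided scale are relative to the typical region, as they are for the scaled reads of the other marks. On the divided scale the CTSG log2 change was 0.82 ± 0.06 (SE), with an adjusted p of 0.00084 by limma, and it was the third highest of the 12470 regions. The study's criteria for a changed region were a log2 change of 0.58 or more in size (the fold criterion) and an adjusted p, or false discovery rate (FDR), not above 0.01 (the FDR criterion). CTSG was the only one of the 6 tested H3K4me3 regions in the windows to pass both, against 0.449% of all tested regions that passed upward. Without the division by the median its log2 change was 0.67 with an adjusted p of 0.00019. Whether more cells carried the mark or each cell carried more of it cannot be told apart in these bulk libraries.

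The same CTSG peak was wider after maltonis. It spanned 991, 908 and 998 bp in the untreated libraries and 1328, 1248 and 1396 bp after maltonis. The added length lay inside the gene: the peak ended 0.93 ± 0.22 kb past the start in untreated cells and 1.28 ± 0.05 kb past it after maltonis (SD, n = 3 per group; exact permutation p = 0.1, the smallest that 3 against 3 libraries allow). The log2 change in length was 0.46 ± 0.06 (SE) with an adjusted p of 0.0060 by limma, past the FDR criterion, as at 14.8% of regions upward, and under the fold criterion. All 3 maltonis libraries were above all untreated ones in length at 54.8% of tested H3K4me3 regions, and with the library medians removed the CTSG change was 0.22 with an adjusted p of 0.069. The FDR criterion was also missed whenever any 1 library was left out (adjusted p 0.015 to 0.022) and with a replicate block (0.030). The caller's −log10 q at CTSG was 2.05, 2.45 and 2.43 in untreated and between 13.3 and 15.0 in maltonis libraries. The untreated peaks were weak ones: they stood at percentiles 18.7 to 24.6 of their own lists, against 42.6 to 49.0 after maltonis.

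H3K27ac at CTSG covered chr14:25040401-25049200, which takes in the whole gene. The untreated libraries had 409, 415 and 460 reads there and the maltonis libraries 746, 974 and 835. As CPM, counts scaled to the library's TMM-normalised total over the tested regions, this was 22.3 ± 1.27 against 45.6 ± 3.00 (SD, n = 3 per group), with no overlap, as at 36.1% of tested H3K27ac regions. The log2 change of 1.03 ± 0.07 (SE) had an adjusted p of 1.67e-06 by edgeR and passed both criteria, as did 8.18% of the 20018 H3K27ac regions upward. It ranked 298 from the highest. Since a read count moves with the length that was called, reads per kb were also compared: they were 88.9, 66.9 and 79.3 untreated and 143, 111 and 149 after maltonis, again without overlap. With the called length as an offset the log2 change was 0.67 ± 0.18 (SE) and the adjusted p 0.024 by edgeR, so the call at FDR 0.01 was lost. That offset can be scaled between libraries in several ways, and 3 were tried. The one just given scales on reads per kb and was chosen after the values of all 3 had been seen. Scaling on the reads gave 0.83 and an adjusted p of 0.00997, which keeps the call, and dividing the length by the library's median gave 0.56 and 0.051, which loses it. The call for CTSG thus depends on the scaling, while its direction held under all 3. The bases under H3K27ac peaks did not separate the groups, at 4600, 6200 and 5800 untreated and 5200, 8800 and 5600 after maltonis.

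**Figure D2:**
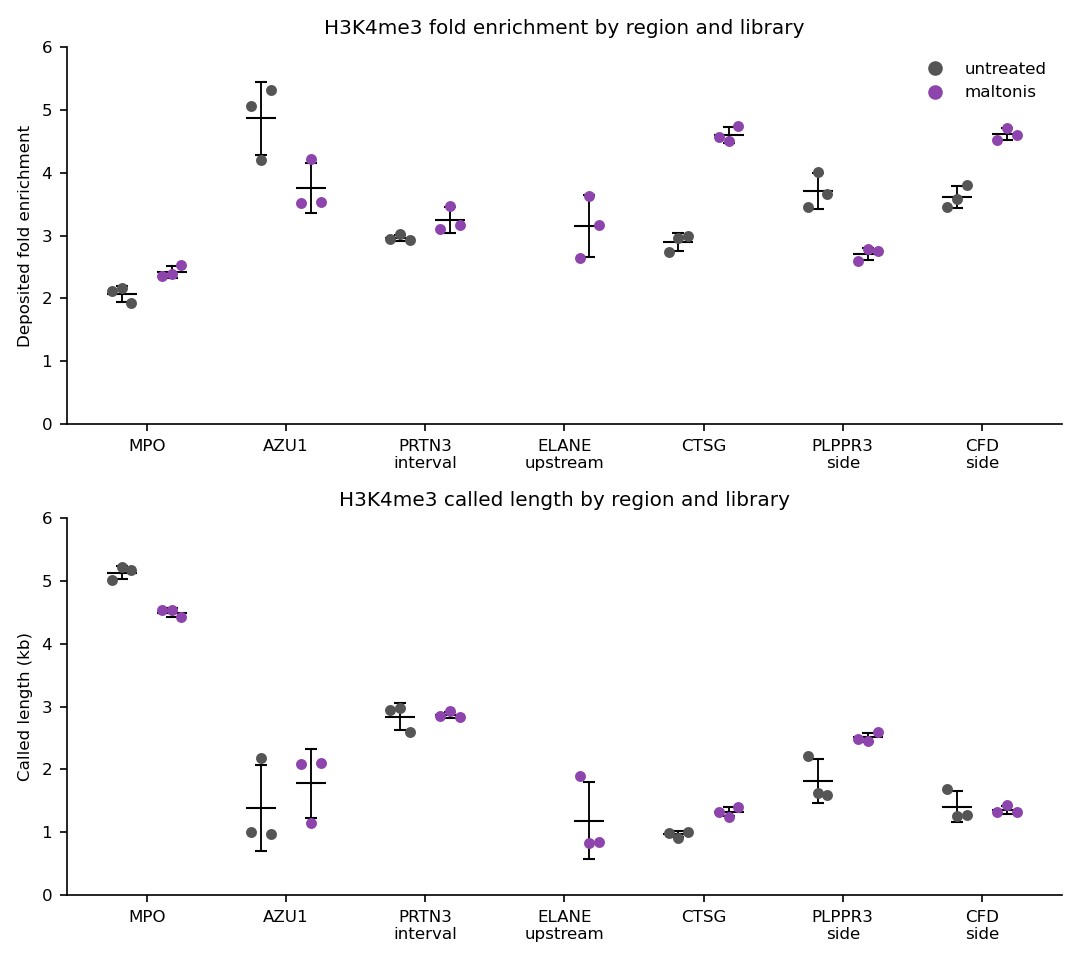
H3K4me3 fold enrichment as deposited (upper panel) and called length in kb (lower panel) for 7 regions; each point is 1 library, horizontal marks are means and bars SD over 3 libraries. CTSG moved from 2.74 to 3.00 up to 4.50 to 4.74, MPO lay at 1.93 to 2.16 untreated and 2.35 to 2.53 after maltonis in enrichment, with mean lengths of 5.13 and 4.49 kb, and the region before ELANE has maltonis points only.

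MPO showed a different pattern, in which the H3K4me3 peak had a higher fold enrichment over a shorter called length after maltonis. H3K27ac there differed little. MPO is the most abundant azurophil granule protein and the classical marker of myeloid leukemia. Its H3K4me3 region, chr17:56353014-56358393, starts at the gene's start and runs into the gene. Fold enrichment was 2.12, 2.16 and 1.93 in untreated and 2.35, 2.39 and 2.53 in maltonis libraries, without overlap. Divided by the library medians, the values did not overlap either, as at 25.2% of tested regions in this direction. The log2 change was 0.39 ± 0.06 (SE) with an adjusted p of 0.0043 by limma, which met the FDR criterion and not the fold criterion. The PRTN3 interval below and a flank on the CFD side also met the FDR criterion alone, so that with CTSG 4 of 6 tested regions did so upward, against 4.5% of all regions. With a replicate block MPO (0.019) and the PRTN3 interval (0.018) missed it, leaving 2 of 6. The 4.5% belongs to the fit without the block, and the share of all regions with the block is not given here. For MPO it was also lost whenever any 1 library was left out (adjusted p 0.011 to 0.017) and without the division by the library median (log2 change 0.23, adjusted p 0.016).

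The length of the MPO peak moved the other way. Fold enrichment is a value for the whole called peak, so it can move with the length called. It was fitted without a length offset, and whether enrichment and length changed separately was not tested. It was 5010, 5215 and 5167 bp in untreated and 4531, 4535 and 4418 bp in maltonis libraries. The groups did not overlap, a pattern toward shorter peaks that 3.99% of tested H3K4me3 regions had. Its downstream end drew back from 5.19 ± 0.13 to 4.43 ± 0.03 kb past the MPO start, and its upstream end went from 65 ± 21 bp inside the gene to 61 ± 38 bp before the start (SD, n = 3 per group; exact permutation p = 0.1 for each end). The log2 change in length was -0.19 ± 0.04 (SE) with an adjusted p of 0.0125 by limma, just above the FDR criterion. The median log2 change in H3K4me3 length over all tested regions was 0.19. With each library centred on its own median length, the MPO change was -0.42 with an adjusted p of 0.0064 by limma. Without centring, the adjusted p by limma was 0.0052 on peaks with a −log10 q of at least 10. It was 0.061 with a replicate block and 0.026 to 0.043 when any 1 library was left out, which missed the FDR criterion. Past the end of the gene, toward LPO, the lactoperoxidase gene next to it in RefSeq order, maltonis replicate 2 alone had a 338 bp H3K4me3 peak at chr17:56342321-56342658 with a −log10 q of 1.12.

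H3K27ac at MPO formed a region that reached far beyond the gene, chr17:56339801-56401600. It held 10008, 10477 and 10267 reads in untreated and 9587, 11434 and 10890 in maltonis libraries, raw counts that overlapped. In CPM the values were 534 ± 4.35 and 571 ± 18.9 (SD, n = 3 per group) and did not overlap, as at 36.1% of regions. The log2 change of 0.10 ± 0.02 (SE) had an adjusted p of 0.0049 by edgeR, met the FDR criterion as did 28.9% of regions upward, and was far under the fold criterion. With a replicate block the adjusted p was 0.012. With the called length as an offset the change was -0.13 with an adjusted p of 0.083, and under the other scalings of the offset it was 0.025 (0.698) and -0.25 (0.0089), so no direction held over these settings. The single peak that crossed the MPO start was 28.2, 39.8 and 32.8 kb wide in untreated and 43.4, 32.4 and 59.4 kb wide in maltonis libraries. Its downstream end lay 15.2 ± 0.61 kb past the start in untreated and 17.4 ± 1.03 kb past it in maltonis libraries (SD, n = 3 per group), with no overlap and an exact permutation p of 0.1. The share of all regions whose ends separated in this way is not given here. By island score the MPO peak ranked 38 to 48 in untreated and 58 to 61 in maltonis lists.

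The chromosome 19 cluster holds AZU1, PRTN3 and ELANE in a row on the same strand, with PLPPR3, a phospholipid phosphatase-related gene, before it and CFD, the complement protease factor D, after it in RefSeq order. Its H3K27ac reads, summed over the merged region from before AZU1 into ELANE, chr19:818601-854600, were higher after maltonis. The part over ELANE was not tested alone. Reads were 3741, 3784 and 3751 in untreated and 4914, 5828 and 5434 in maltonis libraries, with no overlap, as in CPM at 36.1% of tested regions. The log2 change was 0.56 ± 0.03 (SE), 1.48-fold, with an adjusted p of 1.38e-07 by edgeR. This met the FDR criterion, as did 28.9% of regions upward, and fell just short of the fold criterion, and leaving out 1 library moved it between 0.55 and 0.60. Reads per kb were 121 ± 2.78 untreated and 159 ± 8.81 after maltonis (SD, n = 3 per group), and with the called length as an offset the log2 change was 0.28 with an adjusted p of 0.0061. It was 0.44 (0.0012) with the offset scaled on the reads and 0.16 (0.090) with length over the library median, where the FDR criterion was not met.

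**Figure D3:**
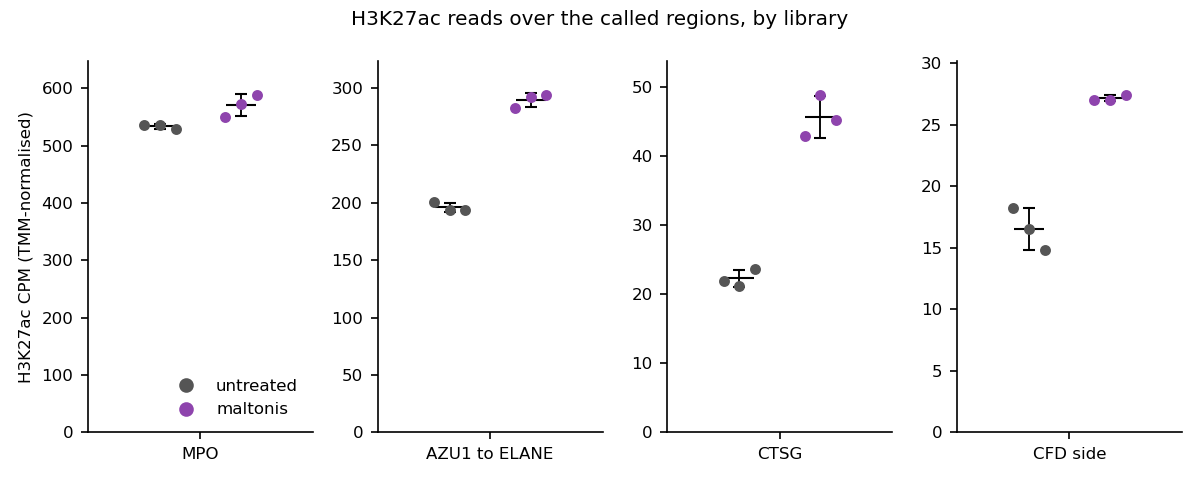
H3K27ac CPM for the 4 H3K27ac regions that were called in all 6 libraries, each panel with its own axis from 0; points are libraries, horizontal marks means and bars SD over 3 libraries. The CTSG, AZU1 to ELANE and CFD side groups lie well apart, while at MPO the means were 534 and 571.

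In maltonis replicate 2 a single 35.4 kb peak joined AZU1 to ELANE, whereas the other libraries had 2 to 4 separate peaks. When the regions were rebuilt without that library, an alternative added after the data had been seen, the stretch split between AZU1 and PRTN3. The AZU1 portion, chr19:818601-833000, had 2381, 2444 and 2441 reads in untreated and 3004 and 3333 in the remaining maltonis libraries. Its log2 change was 0.49 ± 0.03 (SE) with an adjusted p of 8.11e-06 by edgeR, and with the called length as an offset it was 0.31 with an adjusted p of 0.028. The portion from the PRTN3 interval to ELANE, chr19:833401-853400, had 1360, 1340 and 1310 reads untreated and 1910 and 2101 after maltonis. Its log2 change of 0.69 ± 0.05 (SE), with an adjusted p of 6.89e-06 by edgeR, passed both criteria. In that fit 1643 of 20545 regions did so upward. The share that met the FDR criterion alone, as the AZU1 portion did, is not given here. With the called length as an offset the change from the PRTN3 interval to ELANE was 0.36 with an adjusted p of 0.054. Neither portion met the FDR criterion under any of the 3 scalings of the offset (adjusted p 0.011 to 0.110 for AZU1 and 0.015 to 0.151 for the other). The difference between the portions was not tested.

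H3K4me3 along the cluster did not move as a block. At AZU1, chr19:827700-829972, fold enrichment was 5.07, 4.21 and 5.31 in untreated and 3.52, 4.22 and 3.53 in maltonis libraries. The groups overlapped, since untreated replicate 2 and maltonis replicate 2 had nearly the same value. Those values came from peaks of unlike length. The AZU1 peaks were 998, 2174 and 979 bp long in untreated and 2092, 1143 and 2104 bp in maltonis libraries. Enrichment at like length was not tested. The log2 change was -0.21 ± 0.10 (SE) and the adjusted p 0.154 by limma. Without centring the AZU1 change was -0.37 with an adjusted p of 0.018, which also missed the FDR criterion. In the PRTN3 interval the values were 2.94, 3.02 and 2.92 untreated and 3.10, 3.48 and 3.17 after maltonis, without overlap. Divided by the library medians, the values of this interval did not overlap either, a pattern that 25.2% of tested regions had. There the log2 change was 0.29 ± 0.05 (SE) with an adjusted p of 0.0058 by limma, which met the FDR criterion alone. It did not when any 1 library was left out (0.015 to 0.020) or when the libraries were not centred (log2 change 0.13, adjusted p 0.092). The length of this peak was close to equal, 2.84 ± 0.21 kb untreated and 2.87 ± 0.05 kb after maltonis (SD, n = 3 per group).

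ELANE, the elastase whose mutations cause inherited neutropenia, had H3K4me3 near it after maltonis only. The peaks lay at chr19:850662-852708 in 3 of 3 maltonis and 0 of 3 untreated libraries. That pattern was found at 0.836% of the 27037 merged H3K4me3 regions. Fold enrichment was 2.64, 3.63 and 3.17, and the widths were 1890, 828 and 837 bp. The replicate 1 peak crossed the ELANE start as placed here, and those of replicates 2 and 3 ended 821 and 683 bp before it. The −log10 q values were 1.43, 4.67 and 3.24, so the peaks were weak ones, at percentiles 9.14 to 27.8 of their lists. A library without a call has no value here, so the untreated signal is unknown and no fold change can be given. H3K27ac overlapped this stretch in all 6 libraries. Over ELANE itself H3K27ac covered 7.38, 0 and 17.5% of the gene in untreated and 17.5, 58.1 and 27.7% in maltonis libraries.

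Flanking regions of the cluster also differed. On the CFD side, chr19:859406-861092, H3K4me3 fold enrichment was 3.45, 3.58 and 3.81 untreated and 4.53, 4.71 and 4.60 after maltonis. The log2 change of 0.51 ± 0.05 (SE) had an adjusted p of 0.0015 by limma and was under the fold criterion. H3K27ac on that side, chr19:856601-861200, rose from 340, 323 and 288 to 470, 539 and 507 reads. Its log2 change was 0.72 ± 0.09 (SE) with an adjusted p of 9.14e-05 by edgeR, and it was, after CTSG, the other of 4 tested H3K27ac regions in the windows to pass both criteria, against 8.18% of all regions upward. With the called length as an offset this was 0.46 with an adjusted p of 0.022. It was 0.62 (0.0087), which keeps the call, with the offset scaled on the reads, and 0.34 (0.067) with length over the library median. Farther out, chr19:862801-866400 had H3K27ac in 2 untreated and 3 maltonis libraries. On the PLPPR3 side, chr19:820577-823165, H3K4me3 enrichment was 3.45, 4.02 and 3.67 untreated and 2.59, 2.78 and 2.75 after maltonis, without overlap. Divided by the library medians, the values did not overlap either, as at 21.5% of tested regions in this direction. The share for values as deposited, whose library medians were lower after maltonis, is not given here. The log2 change was -0.30 ± 0.06 (SE) with an adjusted p of 0.0129 by limma, just above the FDR criterion, and 0.0013 without centring. The same peak was longer after maltonis, at 2210, 1629 and 1588 bp untreated and 2476, 2459 and 2589 bp after maltonis. Its log2 change in length was 0.49 with an adjusted p of 0.039 by limma, and groups separated upward in length at 54.8% of tested H3K4me3 regions. Whether enrichment fell apart from the added length was not tested.

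**Figure D4:**
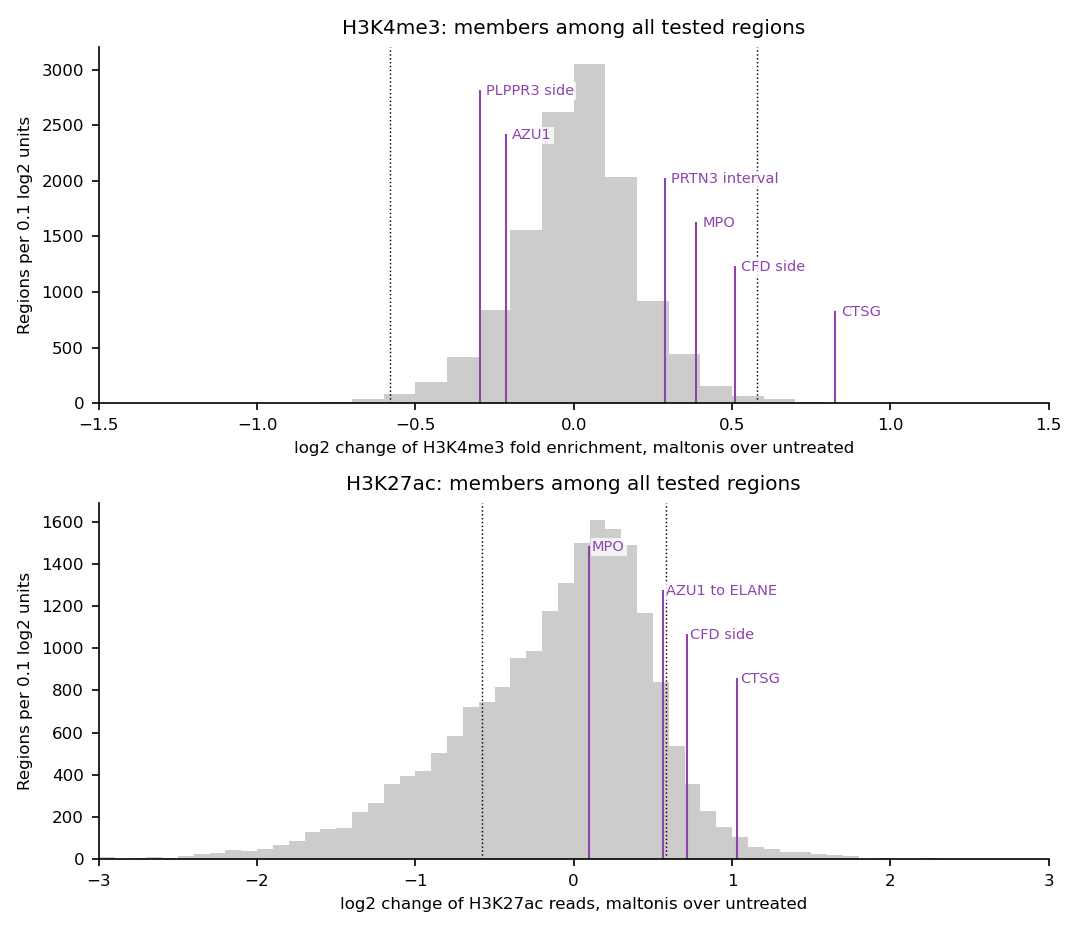
Number of tested regions (grey, per 0.1 log2 units) by log2 change of H3K4me3 fold enrichment (upper panel, 12470 regions) and of H3K27ac reads (lower panel, 20018 regions), maltonis over untreated, with the tested regions of the granule gene windows as purple lines and the fold criterion of 0.58 in either direction as dotted lines. CTSG lies at 0.82 and 1.03, MPO at 0.39 and 0.10, and the merged AZU1 to ELANE H3K27ac region at 0.56.

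The repressive mark H3K9me3 was found at MPO, in the flanks of CTSG and in the chromosome 19 cluster. At the cluster it was called in the PRTN3 interval in 3 of 3 maltonis and 0 of 3 untreated libraries, as at 0.781% of the 46996 merged H3K9me3 regions. The peaks, within chr19:839001-842600, held 43, 48 and 50 reads and were 2200, 3000 and 1800 bp wide. By island score they stood at percentiles 36.1, 27.6 and 65.1 of their lists. The smallest H3K9me3 peaks in those lists held 26, 23 and 19 reads, so these calls rest on few reads and no fold change can be given for them. The H3K9me3 region shared 1694 bp with the H3K4me3 region of the PRTN3 interval, and H3K27ac was called over it in all 6 libraries. No other H3K9me3 peak was present in the window of the cluster in any library.

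At MPO, H3K9me3 peaks lay over the gene start in all 6 libraries, together with H3K4me3 and H3K27ac. The merged region, chr17:56333601-56360200, held 199, 215 and 309 reads in untreated and 191, 228 and 180 in maltonis libraries, which overlapped. The log2 change was -0.15 ± 0.17 (SE) with an adjusted p of 0.765 by edgeR, and it was 0.040 without untreated replicate 3, the library with the most reads there. Upward calls in H3K9me3 made up 0.253% and downward calls 0.0141% of 14226 tested regions, and neither of the 2 tested regions in the windows was called.

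CTSG itself had no H3K9me3 peak in any library. In the flank downstream of the gene, chr14:25031201-25039600, reads were 109, 106 and 116 untreated and 103, 67 and 97 after maltonis. The raw counts did not overlap, but the CPM of the groups did, and the log2 change was -0.18 ± 0.24 (SE) with an adjusted p of 0.807 by edgeR. Upstream, chr14:25051401-25059600 was called in 3 untreated and 2 maltonis libraries, and chr14:25047201-25050600 in untreated replicate 2 alone. Within the 10 kb window H3K9me3 covered 8943, 13543 and 6343 bp in untreated and 6143, 3866 and 6077 bp in maltonis libraries. The groups were barely apart, with an exact permutation p of 0.1.

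Covered length was compared in the same way for each mark at each locus, 9 comparisons in all, of which 7 separated the groups at the smallest possible exact permutation p of 0.1 (0.129 after Benjamini-Hochberg adjustment over the 9). H3K4me3 covered 7.43 ± 0.88 kb of the cluster's window in untreated and 9.70 ± 0.92 kb in maltonis libraries (SD, n = 3 per group). H3K27ac covered 35.9 ± 1.03 and 40.2 ± 1.64 kb of it, 74.2 and 83.1% of the window. In the MPO window H3K4me3 covered 5.13 ± 0.11 kb untreated and 4.61 ± 0.24 kb after maltonis, and H3K27ac 25.2 ± 0.61 and 27.4 ± 1.03 kb. That H3K27ac difference of 2133 bp is the shift of the downstream peak end given above, and not a second result. The differences in covered length depend on the window. With 50 kb flanks the directions turned: maltonis minus untreated was 581 bp in place of -523 bp for H3K4me3 at MPO, and -1533 bp in place of 4283 bp for H3K27ac at the cluster. With no flanks H3K27ac covered the whole MPO gene in every library, a difference of 0. The median log2 change in H3K27ac length over all tested regions was -0.20, and all 3 maltonis libraries were above all untreated ones in length at 3.84% of them, the AZU1 to ELANE region included. For single regions rather than windows, H3K4me3 lengths separated upward at 54.8% and downward at 3.99% of tested regions, and H3K9me3 lengths downward at 5.48%. H3K27ac at CTSG and H3K9me3 at MPO did not separate the groups.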

How the data were processed

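ChIP-seq peak lists of 18 libraries were used, 1 list per library, with groups and replicate numbers from the sample titles. The authors sequenced 51 bp single reads, and the submitters' processing notes name BWA, SAMtools, MACS2, SICER and the hg19 build. Caller versions are not given in the sources used here. The authors called H3K4me3 peaks with MACS2; each deposited peak has a fold enrichment ratio over background, a score, and −log10 p and q values, and no read count. The authors called H3K27ac and H3K9me3 with epic2 in 200 bp windows; each deposited region has a read count and an island score. Reads in peaks were 17974940 to 20773316 per H3K27ac library and 2595814 to 3366296 per H3K9me3 library, so H3K9me3 values are less precise.

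The members and lists were chosen with earlier results of these data known. Named regions are all merged regions in the windows. Peaks sharing at least 1 bp were merged over the 6 libraries of a mark, and regions called in all 6 were tested. Read counts were tested with edgeR 4.0.16 (quasi-likelihood, TMM) in R 4.3.3. log2 fold enrichment, centred on library medians, and log2 length were tested with limma 3.58.1. TMM and centring remove a shift shared by most regions, so global amounts of a mark cannot be read from these changes. By mass spectrometry the paper found H3K4me3 and H3K27ac raised and H3K9me3 lowered in bulk after maltonis. Adjusted p-values are Benjamini-Hochberg values over all tested regions; standard errors come from the test statistic. Covered length was compared by exact two-sided permutation (scipy 1.17.1). The fits were tested on simulated data. The alternatives were DESeq2 1.42.0, no filter, length offsets, other library scalings, stricter peaks, merging within 1000 bp, other flanks, a replicate block and leaving out each library. The length offset was planned without a scaling between libraries: TMM on reads per kb, TMM on the reads, and length over the library's median were each tried, and the first was reported as the offset result after the values of all 3 had been seen, because its median change over all regions was nearest 0. The other 2 are alternatives added after the data were seen. A median near 0 largely follows from scaling on the quantity that is compared, so it does not favour the first scaling over the other 2. The study's own test on alignments (DiffBind) could not be run on peak lists. No hg19 annotation was used, so exons and other granule genes were not analysed here, and proteins were not compared. No per-sample column was left unused (0).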

Additional observations from a re-analysis of the deposited data

How the results depend on the processing

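CTSG kept both criteria in H3K4me3 fold enrichment under every alternative that could be fitted (log2 0.67 to 0.86) and in H3K27ac reads under every alternative without a length offset (0.98 to 1.09). Peaks with a −log10 q of at least 10 left too few libraries to test H3K4me3 at CTSG, PRTN3, PLPPR3 or CFD. H3K9me3 rests on few reads, and where a peak was not called no value exists. Of 497 recomputed values, 390 kept their direction and their side of the criteria for passing both FDR and fold or, for a count of regions, stayed within 1.5 times, and the causes of the others were not tested.

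With the called length as an offset, H3K27ac gave 0.67 for CTSG, 0.46 for the CFD side and -0.13 for MPO, with 434 regions higher and 908 lower in place of 1637 and 3840. H3K9me3 then gave 0.16 for the CTSG downstream flank and 0.094 for MPO, with 17 and 6 regions in place of 36 and 2. Regions rebuilt without maltonis replicate 2 gave 0.69 for the PRTN3 to ELANE portion. The offset results depend on how libraries were scaled, which was chosen after the data were seen. H3K27ac above is scaled on reads per kb (median change over all regions -0.0013). Scaled on the reads it gave 0.83 for CTSG and 0.025 for MPO, with 1178 regions higher and 459 lower (median 0.16). With length over the library median it gave 0.56 for CTSG, 0.34 for the CFD side and -0.25 for MPO, with 216 and 1556 (median -0.12). H3K9me3 under these 2 scalings gave 0.19 and 0.18 for the CTSG downstream flank, 0.11 and 0.11 for MPO, 17 and 19 regions higher and 3 and 5 lower. Rebuilt and with the offset scaled on reads per kb, the values were 0.84 for CTSG, 0.52 for the CFD side and -0.17 for MPO, with 185 regions higher and 349 lower. Scaled on the reads they were 1.00, 0.69 and -0.0012, with 596 and 130, and with length over the median 0.73, 0.41 and -0.28, with 135 and 877. H3K9me3 calls upward and downward were 129 and 36 by DESeq2, 17 and 1 after scaling to reads in peaks, 20 and 0 on the strongest peaks, and 30 and 1 with peaks merged within 1000 bp. Without a filter edgeR made 0 and 0 (1266 and 2038 at an unadjusted p under 0.05). H3K4me3 fold enrichment gave 12 regions higher and 269 lower without centring, where the median over all regions was -0.14, and 7 and 19 on the strongest peaks, in place of 56 and 60. In H3K4me3 length 78 regions were longer once centred, against 444, and 11 shorter on the strongest peaks, against 36; the PRTN3 interval was then -0.21 once centred. In H3K27ac length 73 were shorter once centred, against 406. With 50 kb flanks the covered length reversed, to a difference (maltonis minus untreated) of 581 bp from -523 bp for H3K4me3 at MPO and of -1533 bp from 4283 bp for H3K27ac at the cluster. With no flanks it was 0 for H3K27ac at MPO and CTSG and for H3K9me3 at CTSG.

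Same-numbered libraries did not deviate together (correlations at most 0.03). The sample titles give only a replicate number, so whether such libraries shared a culture or batch is not known. With the replicate block, CTSG kept its calls (0.82 and 1.03), the FDR criterion alone was lost for H3K4me3 at MPO (adjusted p 0.019), in the PRTN3 interval (0.018) and in CTSG length (0.030) and for H3K27ac at MPO (0.012), H3K9me3 had 11 regions higher and 0 lower by edgeR (1175 and 749 at an unadjusted p under 0.05), and limma called 0 regions longer and 0 shorter in H3K4me3 (5348 and 357 unadjusted) and in H3K27ac (532 and 4755 unadjusted).

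Leaving out 1 library gave 0.55 to 0.60 for H3K27ac over AZU1 to ELANE, which passed the fold criterion without untreated replicate 1 (0.58) or maltonis replicate 1 (0.60). H3K9me3 ranged from -0.35 to 0.0063 at the CTSG downstream flank, where 0.0063 came without maltonis replicate 2, and from -0.26 to 0.040 at MPO, where 0.040 came without untreated replicate 3. Upward H3K9me3 calls ranged from 1 (without maltonis replicate 2) to 12, and downward calls were 0 throughout by edgeR (585 to 837 at an unadjusted p under 0.05). H3K4me3 regions called longer ranged from 213 to 327 and shorter from 16 to 36. H3K27ac regions called longer or shorter were 0 throughout by limma (429 to 610 and 4197 to 5178 unadjusted). H3K27ac covered length at CTSG moved from -133 bp without maltonis replicate 2 to 1667 bp. The log2 change in length ranged from -0.025 (without maltonis replicate 2) to 0.35 for H3K27ac at CTSG, from -0.43 to 0.026 (without untreated replicate 3) for H3K9me3 at MPO, from -0.045 (without untreated replicate 3) to 0.054 for H3K4me3 in the PRTN3 interval and from -0.11 to 0.10 (without untreated replicate 1) for H3K4me3 on the CFD side.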
